A study of Mus musculus with 21 samples.

Results

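Il9r, the gene of the receptor chain that binds interleukin-9, lies with its lower-coordinate flank at the outer edge of the mouse alpha-globin neighbourhood on chromosome 11. The stretch described here is chr11:32003000-32103000 in mm9. It was defined by coordinates, with earlier results of these data known. The stretch holds Il9r (about 32088000 to 32100000), an 85 kb flank below it and 3 positions above it. In 5 libraries of chromosome conformation capture with sequencing (4C-seq) it has 503 positions at steps of 1 kb, of 1855 positions in these libraries and 14771 in all 21 libraries of the series. Per library that is 100 or 101 positions, 12 or 13 of them in the Il9r interval.

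In 4C-seq, fixed chromatin is cut and ligated, and the fragments joined to a chosen fragment, the viewpoint, are amplified by inverse PCR and sequenced. The signal at a position thus reads how often it lay near the viewpoint in a cell population. The viewpoints were the promoter of Hba-a1, an adult alpha-globin gene, and HS-26, a DNase-hypersensitive site known as the main alpha-globin enhancer. The 5 groups of 1 library each were the Hba-a1 promoter in fetal liver from 1/16 of the template, in fetal liver from full template and in fetal brain, and HS-26 in fetal liver and in fetal brain. All came from C57BL/6 embryos at 14.5 days post coitum with organs of several embryos pooled, were fixed in 2% formaldehyde for 10 minutes, and were cut with DpnII and then Csp6I. There were no replicates, so no test was run, no p-value is given, and every difference is one between 2 libraries.

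The alpha-globin genes are switched on in erythroid cells, which fill the fetal liver, and are silent in brain. Their enhancers lie on the lower-coordinate side, inside introns of Nprl3, a housekeeping gene of the amino-acid sensing pathway, and loop to the globin promoters in erythroid cells. Il9r pairs with the common gamma chain of cytokine receptors and is known from T cells and mast cells. It is not part of the globin programme. Whole organs were fixed, so the signal averages over all cell types of the organ.

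In the RefSeq gene table of GRCm38.p6, used here only for the order of genes, Il9r is followed by Snrnp25, a protein of the minor spliceosome, then Rhbdf1, an inactive rhomboid protein, Mpg, a DNA repair glycosylase, and Nprl3. On its lower side the next protein-coding gene is Nsg2, a neuronal vesicle protein. Between Nsg2 and Il9r that table lists 4 lncRNA genes (Gm12108, Gm39676, Gm51888 and Gm40823) and the pseudogene Gm12109. The flank thus lies on the side of Il9r away from the globin genes.

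4C-seq reads a locus through the ends of the fragments that the first enzyme makes, which for DpnII means sites of the letters GATC. The Il9r promoter window is shown because it holds such a site close to the gene's start. RefSeq places it at chr11:32200230-32200529 on the minus strand of GRCm38.p6, a build other than that of the signals, so no signal was read at these coordinates. Capitals mark GATC, the DpnII site.
Il9r promoter: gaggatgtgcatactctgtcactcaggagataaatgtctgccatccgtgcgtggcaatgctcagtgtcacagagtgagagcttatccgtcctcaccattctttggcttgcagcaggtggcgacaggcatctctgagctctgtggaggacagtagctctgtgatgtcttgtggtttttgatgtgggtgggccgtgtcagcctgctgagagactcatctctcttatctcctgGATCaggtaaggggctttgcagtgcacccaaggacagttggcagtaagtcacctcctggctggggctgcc
The 300 bases hold 1 GATC, starting at base 231, and 0 matches to GTAC, the site of the second enzyme Csp6I. Both motifs read the same on either strand and do not overlap here. Of 32851 RefSeq promoter windows of this length, 48.0% hold GATC and 35.8% hold GTAC.

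Signals are the authors' middle values of a 5 kb smoothing window, which reach about 1 at the viewpoint. A relative signal sets that value against the average of its library more than 10 kb away from the viewpoint, so 1 is the library's average. Sequencing depth is unknown, and the libraries differed in how finely their signal was graded. Over the 100 kb stretch, 12 different values occurred from the Hba-a1 promoter in liver with 1/16 template, 23 in liver with full template and 69 in brain, and from HS-26 6 in liver and 69 in brain. The commonest value held 58 of 100 positions in the 1/16 liver library of the promoter, 31 of 101 in the full one and 5 of 100 in brain. From HS-26 it held 56 of 101 in liver and 7 of 101 in brain. In each of the 3 liver libraries the median of the stretch was this commonest value, and positions that share a value have no order among themselves. It was not the lowest value: 19 positions of the full library were empty, and lower values occurred in the other liver libraries.

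Il9r stood near the library average in brain from both viewpoints and well under it in liver. From the Hba-a1 promoter, 84.9 to 96.9 kb away, its relative signal over the interval was at lowest 0.0164, at median 0.0706 and at highest 0.0991 in liver (full template), against 0.780, 0.861 and 1.12 in brain. From HS-26, 49 to 61 kb away, the same figures were 0.208, 0.217 and 0.320 in liver, against 0.776, 1.06 and 1.32 in brain. No position of Il9r in liver reached the lowest one in brain from either viewpoint. The positions are smoothed over their neighbours and are not replicates. A level far under the mean was common in liver. From the promoter, the median of all positions beyond 10 kb was 0.0191 of the mean in full-template liver and 0.571 in brain. From HS-26 it was 0.208 in liver and 0.487 in brain. The median over Il9r was above the library median in each of these 4 libraries.

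The mean relative signal of Il9r from the promoter was 0.0659 in liver and 0.910 in brain. On the scale of log2(relative signal + 0.1), used for all differences below, this is a difference of -2.61. HS-26 gave means of 0.261 in liver and 1.08 in brain, which differ by -1.70. The difference from HS-26 kept its direction under all settings tried, whereas that from the promoter turned to 1.07 when libraries were scaled to their median. For comparison, the log2 ratio of the 1/16 over the full template library had an SD of 1.04 over 325 positions. That SD describes this pair of libraries at single positions and is no error of a tissue difference.

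As deposited, on the authors' own scale, Il9r from the promoter averaged 0.00273 in full-template liver, with the lower and higher columns at 3.53e-05 and 0.0204. In brain it averaged 0.0279, between 0.00839 and 0.0577. HS-26 gave 0.00121 in liver, between 0.000152 and 0.00539, against 0.0172 in brain, between 0.00492 and 0.0373. The liver ranges lay lower and overlapped the brain ranges from both viewpoints. What quantiles the lower and higher columns hold is unknown.

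**Figure D1:**
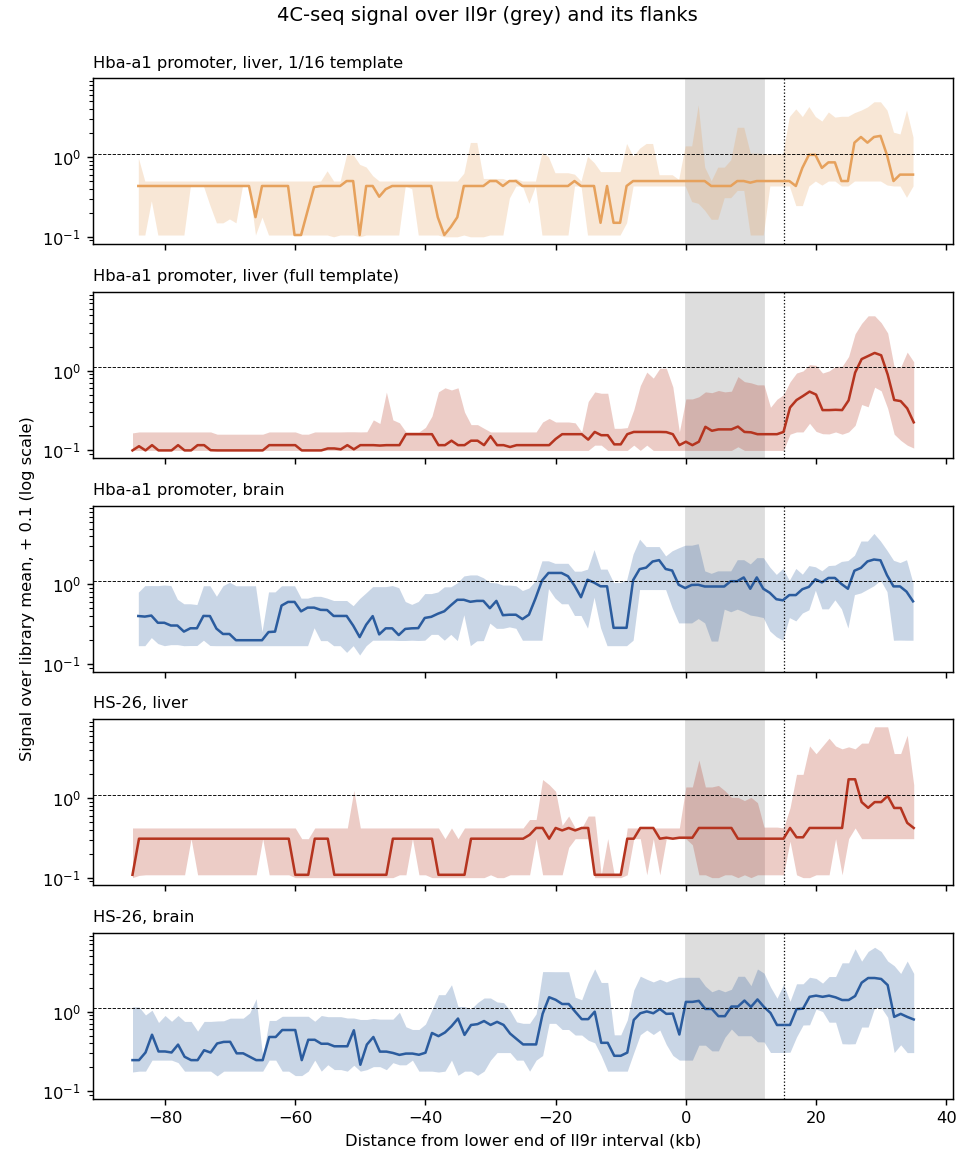
Relative signal plus 0.1 (vertical log axis) against distance from the lower end of Il9r in kb, for the 5 libraries. Lines are the middle value and bands run from the lower to the higher value of the 5 kb window, grey marks Il9r, the dotted line the end of the 100 kb stretch and the dashed line the library mean. In brain the line first passes the mean about 20 kb below Il9r and averages 0.910 and 1.08 over Il9r, while in the 3 liver libraries it stays under the mean throughout the stretch.

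The whole 100 kb stretch took a small part of the liver signal. From the Hba-a1 promoter it held 0.957% of the signal beyond 10 kb in liver (full template) and 16.8% in brain, in 31.0% and 30.8% of the positions. From HS-26 it held 5.65% in liver and 16.2% in brain, in 31.1% of the positions of each. Il9r alone took 0.263% of the promoter's liver signal and 3.36% of its brain signal, and 1.04% of the HS-26 signal in liver and 4.31% in brain.

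Counted by position, the stretch followed its libraries. With the promoter as viewpoint, 90 of 101 positions were more than 2-fold lower in liver than in brain, where 76.4% of all 326 positions beyond 10 kb were, and 0 were more than 2-fold higher, where 7.36% of all positions were. With HS-26, 57 of 101 were more than 2-fold lower, where 48.6% of all 325 positions were, and 0 were higher, where 4.31% of all were. The shares of the stretch, 89.1% and 56.4% lower, were somewhat above those of all positions, which include the stretch itself. The lower liver level was common over all positions and not particular to this stretch. Within it the 13 positions of Il9r were all more than 2-fold lower from both viewpoints, while the flank had 74 of 85 from the promoter and 41 of 85 from HS-26. From the promoter this contrast rests on the pseudocount. With one of 1%, all 101 positions were more than 2-fold lower, where 82.2% of all were. The plain ratios of liver over brain from the promoter were 0.0724 at Il9r and 0.0496 in the flank. From HS-26 they were 0.242 and 0.391.

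Set against the median log2 ratio of all positions, -1.87 from the promoter and -0.96 from HS-26, the median of Il9r was lower by 0.59 and 0.93. The median of the flank differed from it by -0.0067 and 0.022. The flank as a whole thus stood near the median of all positions under this scaling, while its 20 kb next to Il9r had medians of -3.02 and -1.36. With the library median as the unit, Il9r from the promoter turned to 0.49 above the median of all positions. The flank then stood at -0.39 from it. From HS-26 Il9r was at -1.03 from that median with this unit. The pseudocount is a fixed share of the unit and so changed with it. A change of unit alone moves every log2 ratio by the same amount, so the turn from the promoter rests on the pseudocount. For the promoter, the library median was 0.0191 of the mean in full-template liver and 0.571 in brain. The pseudocount thus shrank more in liver.

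**Figure D2:**
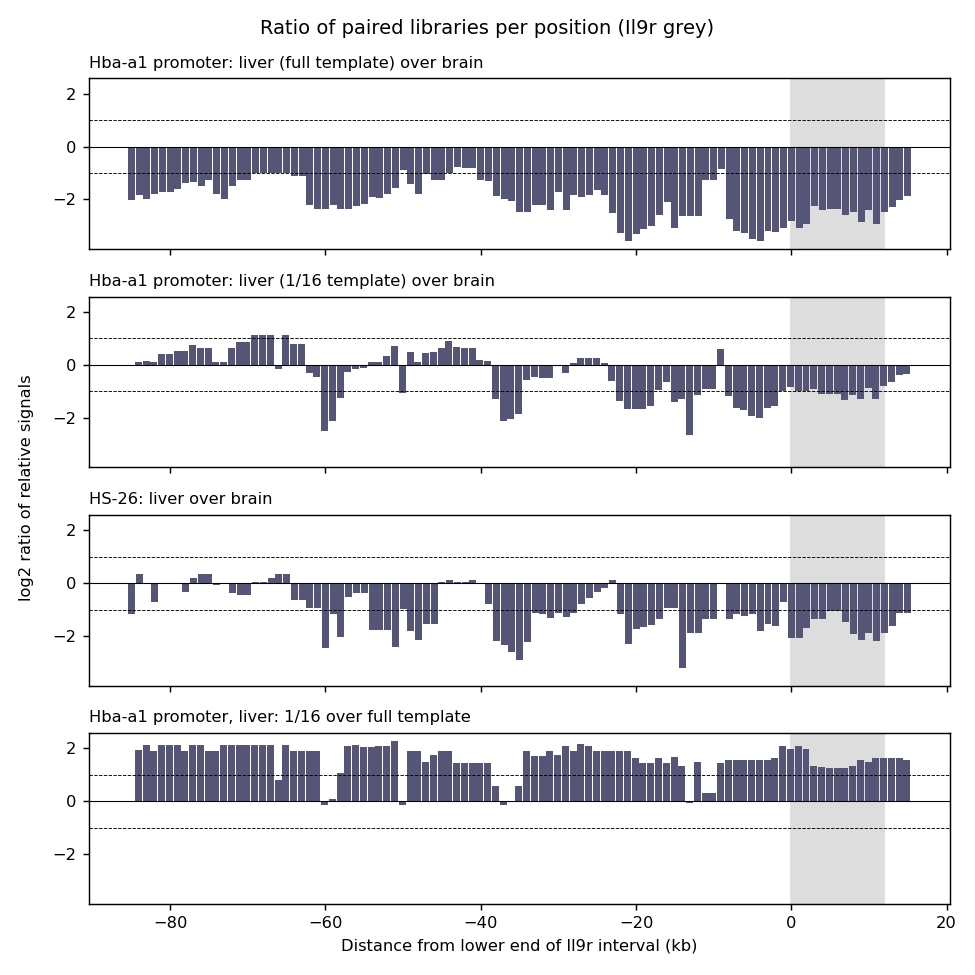
log2 ratio of relative signals per position (vertical axis) against distance from the lower end of Il9r in kb, for 4 pairs of libraries, with dashed lines at 2-fold and Il9r in grey. Liver is under brain at every position of Il9r in the 3 tissue pairs. The 1/16 template library is above the full one by more than 2-fold at 89 of 100 positions, where 65.8% of all 325 positions were.

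Far below Il9r, the brain signal was lower than near it from both viewpoints. The zone of 20 kb next to Il9r (32.068 to 32.087 Mb) had a relative signal of 1.02 from the promoter, above the 0.910 of Il9r, and 0.717 from HS-26, below the 1.08 of Il9r. The next zones had 0.532, 0.256 and 0.211 from the promoter, and 0.535, 0.268 and 0.256 from HS-26. The last 5 kb had 0.272 from the promoter and 0.225 from HS-26. Beyond about 40 kb below Il9r the brain libraries thus stood far under their mean.

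In liver with full template the promoter's signal was lower in each farther zone, with 0.0546, 0.0246, 0.0172 and 0.00578 in these 4 zones, and 19 positions of the stretch were empty. HS-26 in liver gave 0.207, 0.171, 0.0884 and 0.208, with no steady fall, and 1 value filled the whole lowest of these zones. There liver and brain were close from HS-26, at 0.208 and 0.256, a log2 difference of -0.21 against -1.41 in the zone next to Il9r. From the promoter the differences of the 4 zones were -2.86, -2.34, -1.60 and -1.56, and -1.81 in the last 5 kb. This order rests on the pseudocount, which exceeds the liver levels: the plain ratios of liver over brain were 0.0535, 0.0462, 0.0673 and 0.0273, and 0.0216 in the last 5 kb, with no narrowing.

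Il9r against its own flank shows the slope within each library. Il9r had a higher mean than the flank in all 5, with log2 differences of 0.24 in liver with 1/16 template, 0.42 in liver with full template and 0.77 in brain from the promoter. HS-26 gave 0.43 in liver and 1.15 in brain. Without a pseudocount, a setting chosen after seeing the data, the promoter's order of full-template liver and brain turned, with Il9r 2.70 times the flank in liver and 1.85 times in brain. From HS-26 the plain ratios were 1.55 in liver and 2.50 in brain. Against the mirror, the HS-26 values were -2.27 in liver and -0.0048 in brain.

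**Figure D3:**
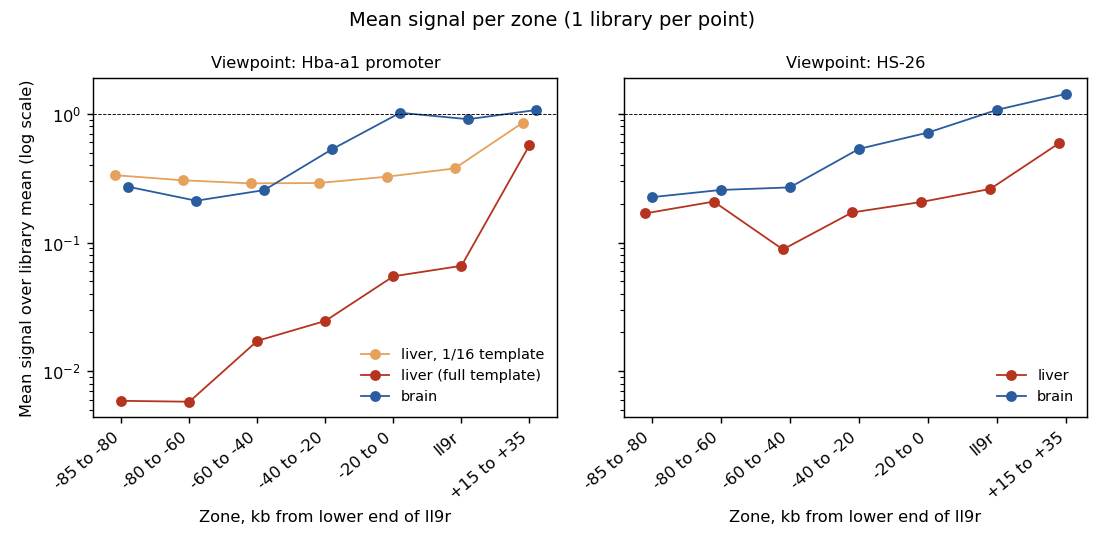
Mean relative signal (vertical log axis) in zones ordered by distance from the lower end of Il9r, for each viewpoint, with 1 library per line and the dashed line at the library mean. Brain has 0.211 and 0.256 in the zone at -80 to -60 kb, against 0.910 and 1.08 at Il9r, while the liver line of HS-26 stays between 0.0884 and 0.261 up to Il9r.

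Inside the stretch, the brain maxima of the Hba-a1 promoter and HS-26 fell on the same places. The promoter's 5 highest maxima at least 10 kb apart were at 32.084, 32.068, 32.097, 32.053 and 32.027 Mb, with relative signals of 1.91, 1.29, 1.12, 0.540 and 0.502. Those of HS-26 were at 32.067, 32.099, 32.084, 32.053 and 32.027 Mb, with 1.41, 1.32, 0.978, 0.718 and 0.487. Each had a partner in the other library within 2.11 kb, although their order by height differed. Both libraries came from the same tissue and read the same DpnII fragments, so they are not independent, and the part of the fragments in this pattern was not tested.

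The maximum at 32.097 to 32.099 Mb lies within Il9r, and the one at 32.084 Mb lies 4 kb below it. At 32.084 Mb the promoter had 0.0706 in liver with full template against 1.91 in brain, and HS-26 had 0.208 in liver against 0.978 in brain. At 32.068 Mb the promoter had 0.0392 in liver and 1.29 in brain, and HS-26 0.320 in liver and 1.30 in brain. At 32.053 Mb, in the flank, the promoter had 0.0164 in liver and 0.540 in brain, and HS-26 0.00853 in liver and 0.718 in brain. Liver values at these places were mostly the recurring ones of the library, so the height of a maximum there has little order. The highest maximum of the promoter in liver was 32.096 Mb with 0.0991, also within Il9r. No other position of the stretch was as high in that library.

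A shared low stretch separated 2 of the brain maxima. The lowest values of the 20 kb below Il9r were 0.185 at 32.077 to 32.079 Mb from the promoter and 0.179 at 32.077 to 32.078 Mb from HS-26 in brain. HS-26 in liver had its lowest value, 0.00853, at 32.074 to 32.078 Mb, and the 1/16 liver library had 0.0499 among positions at 32.075 to 32.078 Mb. The full liver library of the promoter had 0.0191 at 10 and 11 kb below the lower end of Il9r, within the same stretch, and its lowest position, at 0.0164, was 32.087 Mb.

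Signals were higher in the 20 kb above the stretch than at Il9r, with a larger log2 difference in liver than in brain. Between Il9r and the 20 kb above the stretch, towards the enhancers, relative signals were 0.0659 and 0.572 from the promoter in liver with full template, and 0.910 and 1.07 in brain. HS-26 had 0.261 and 0.594 in liver, against 1.08 and 1.43 in brain. On the log2 scale Il9r differed from the region above by -2.02 in liver and -0.22 in brain for the promoter, and by -0.94 in liver and -0.38 in brain for HS-26. In the 1/16 library Il9r had 0.377 and the region above 0.854. These differences are taken within a library and, but for the pseudocount, do not depend on its scaling. The region above was picked after the data were seen. Divided by the decay with distance described below, the promoter's value in liver shrank to -0.60, and those of HS-26 turned to 0.76 in liver and 0.32 in brain.

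The 5 kb bins place this rise, which from HS-26 in liver came only at 25 to 30 kb and not at the upper edge of Il9r. From the promoter in liver the relative signal was 0.0616 in the bin of 10 to 15 kb above the lower end of Il9r, 0.295 and 0.257 in the following bins and 1.09 at 25 to 30 kb. In brain the same bins had 0.733, 0.784, 0.971 and 1.72. HS-26 had 0.208, 0.258, 0.320 and 1.09 in liver, and 0.969, 0.910, 1.42 and 2.01 in brain. The 1/16 library had 0.401, 0.661, 0.591 and 1.59. Every library thus had a high bin 25 to 30 kb above the lower end of Il9r, outside the 100 kb stretch.

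Distance alone lowers a 4C signal, so Il9r was also set against a monotone decay fitted to both sides of its own viewpoint. The pseudocount was added to both observed and expected values. The fit included Il9r itself and the same distances on the other side. The expectation is thus drawn towards the observed value and is no independent reference. Observed over expected from the promoter was 1.21 in liver with full template, 1.20 in brain and 1.18 in the 1/16 library. By this measure liver and brain differed by 0.017 in log2, against -2.61 in relative signal. The pseudocount exceeds the liver levels of Il9r and the flank from the promoter, so these liver ratios are held near 1. Without it the ratios from the promoter were 1.79 in liver and 1.23 in brain at Il9r, and 1.61 in liver and 1.22 in brain in the flank. HS-26 had ratios of 0.403 in liver and 0.989 in brain, which differ by -1.29. With the pseudocount the flank had ratios from the promoter of 1.08 in liver and 1.17 in brain, and ratios from HS-26 of 0.972 in liver and 0.926 in brain.

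Among positions at 0.5 to 2 times its distance in the same library, the mean of Il9r from the promoter was at percentile 79.4 in liver and 83.0 in brain. From HS-26 it was at percentile 51.2 in liver and 66.3 in brain. The zone next to Il9r was at percentile 88.7 in brain from the promoter, above Il9r itself.

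Without a fitted decay, the same distances on the other side of the viewpoint serve as a mirror. These positions were also part of the fit, so the mirror and the decay are not independent references. From the promoter Il9r was above its mirror in each library, with 0.377 against 0.241 in the 1/16 liver library, 0.0659 against 0.00159 in the full liver library and 0.910 against 0.554 in brain. From HS-26 it was below, with 0.261 against 1.72 in liver and 1.08 against 1.23 in brain. The mirror of Il9r from HS-26 lies beyond the Hba-a1 promoter on the globin side, so the mirrors of the viewpoints are different regions.

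The 1/16 template library shows how much of the liver level depends on the library. Its mean at Il9r was 0.377, against 0.0659 with full template, and in the flank 0.304 against 0.0244. The log2 differences of 1/16 over full template were 1.52 at Il9r and 1.70 in the flank. More than 2-fold higher values with 1/16 template were found at 89 of 100 positions, where 65.8% of all 325 positions were higher, and lower ones at 0, where 2.46% of all were. The profile of the diluted library was nearly flat, with zones between 0.288 and 0.334 below Il9r, on its recurring value of 0.334.

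With the 1/16 library in place of the full one, Il9r was still lower in liver than in brain, by a log2 difference of -1.08, and the 12 positions lay between 0.334 and 0.401 against 0.780 to 1.12 in brain. Of the 100 positions, 31 were more than 2-fold lower, where 24.9% of all were, and 7 of these lay in Il9r. The zone next to Il9r differed by -1.40, and the 2 zones between 40 and 80 kb below Il9r turned to 0.13 and 0.38. From the promoter, relative to the library mean, the lower liver level at Il9r and next to it was thus found with either template amount, and that of these far zones with full template alone.

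**Figure D4:**
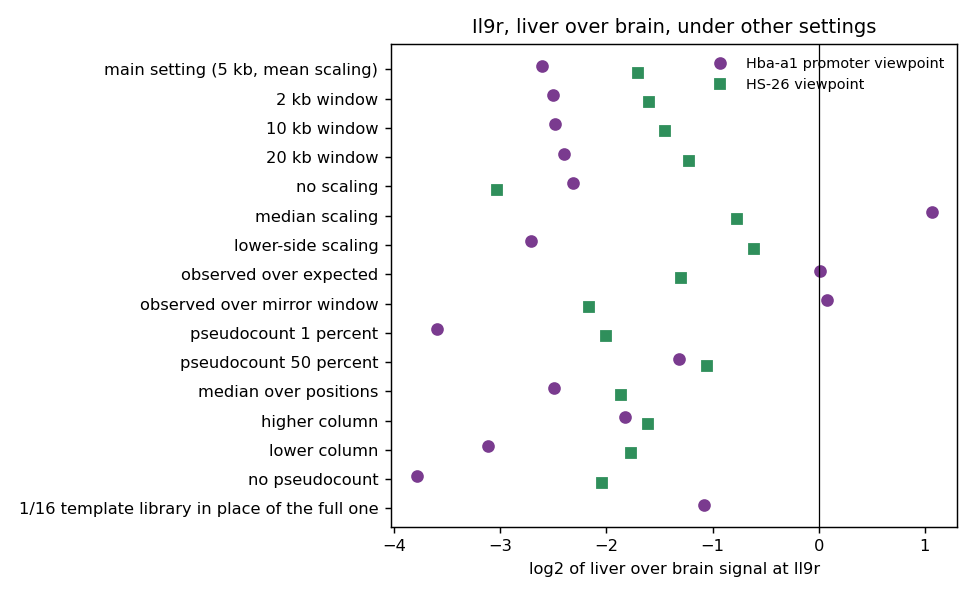
log2 difference of liver over brain at Il9r (horizontal axis) under the main setting and each other setting (rows), with circles for the Hba-a1 promoter and squares for HS-26. HS-26 stays under 0 throughout, from -3.03 to -0.61, whereas the promoter lies at 1.07 with median scaling and at 0.017 and 0.080 against the expected decay and the mirror.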

How the data were processed

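The deposited files hold a signal per position that the authors smoothed over 48 running windows of 2 to 49 kb. Each window has a middle, a higher and a lower column, in that order of size at 100% of positions. The build is mm9, per the submitters' processing notes. With aligner, filters, read numbers and scaling not given in the sources used here, the depth could not be told and intervals for counting error are not given. The middle value of the 5 kb window was scaled to the mean of its library outside 10 kb around the viewpoint, taken over positions covered by all libraries of that viewpoint. Viewpoints were placed at the median position of the highest signal, 32184894 for the Hba-a1 promoter and 32149000 for HS-26. A pseudocount of 10% of the mean was added before log2. Grids were matched within 500 bp. Values under 1e-09 counted as empty. The expected decay was an isotonic regression of scikit-learn 1.9.0 under Python 3.11.15. Region differences between libraries and the mirror contrast of Il9r were tested on simulated data. That test used no pseudocount and a smooth decay without ties or empty positions, unlike the liver libraries. Observed over expected, percentiles, counts past 2-fold and maxima were not simulated. Named features were Il9r, zones of 20 kb below it, and up to 5 maxima per library at least 10 kb apart. The stretch and these choices were made with earlier results of these data known.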

Additional observations from a re-analysis of the deposited data

Results flagged for a closer look

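The contrast of Il9r with the same distances on the other side of the viewpoint ran in opposite directions between the viewpoints. From the Hba-a1 promoter the log2 difference was 0.48 in liver with 1/16 template, 0.71 in liver with full template and 0.63 in brain. From HS-26 it was -2.33 in liver and -0.17 in brain. The difference between the viewpoints was not tested, and the mirrored regions are not the same.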

How the results depend on the processing

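No paired analysis was possible because each group holds 1 library. Of 217 values recomputed for 19 results, 176 moved by less than the template pair's SD of 1.04 or, for counts, by less than 1.5 times, 30 moved more and 11 turned the sign of a difference over 2-fold. Differences under 2-fold could change sign and still be among the 176. The flank from HS-26 in liver over brain did so with the lower side's mean, at 0.0060. Il9r over its flank did so from HS-26 in liver with the lower column, at -0.12. Il9r over the region above did so from HS-26 in brain, at 0.32 against the decay and 0.43 against the mirror. For Il9r in liver over brain from the Hba-a1 promoter, median scaling gave 1.07, the expected decay 0.017, the mirror 0.080, a 50% pseudocount -1.32 and the 1/16 library -1.08. For the flank these were 0.52, -0.12, -0.19, -0.92 and -0.55, and a 1% pseudocount gave -3.87. Without a pseudocount, added after the data were seen, Il9r had -3.79 and the flank -4.33, the flank with 1/16 over full template 3.64, and Il9r over the region above in full-template liver -3.12. From HS-26, Il9r had -3.03 without scaling and -0.61 with the lower side's mean, and the flank -2.13 without scaling, 0.070 against the decay and 0.11 against the mirror. For 1/16 over full template, median scaling, decay and mirror gave -1.53, -0.045 and -0.22 at Il9r and -0.45, -0.033 and -0.11 in the flank, where pseudocounts of 1% and 50% gave 3.19 and 0.62. With a 50% pseudocount, 35 of 101 positions from the promoter were more than 2-fold lower in liver, where 32.2% of all positions were. From HS-26 16 of 101 were, where 17.8% of all were, so the stretch was not above all positions there. With 1/16 over full template 0 of 100 were higher, where 2.77% of all were. From HS-26 the count of lower positions was 34 of 94 with the 20 kb window, where 29.0% of all were. Without scaling it was 94 of 101, where 89.2% of all were. Il9r over its flank from HS-26 was -1.27 and -2.27 in liver against decay and mirror, and 0.095 and -0.0048 in brain. Il9r over the region above, a comparison added after the data were seen, was -0.60 against the decay and -0.92 with a 50% pseudocount from the promoter in full-template liver, and 0.76 and 0.72 against decay and mirror from HS-26 in liver. No mm9 annotation was used, so the annotated interval of Il9r was not run. The causes were not tested. Liver signals under the pseudocount limit all results from the promoter with full template.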
